A study of Bos taurus with 12 samples.

Results

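Olfactory receptor genes were taken as every autosomal locus whose closest annotated feature lay within 10 kb and whose description names an olfactory receptor. This gave 138 of the 25020 loci listed in 2 tables, namely 120 of 17730 single CpG sites at 57 genes and 18 of 7290 tiles (windows of 500 bp) at 5 genes. Together they cover 61 genes, of which 1, OR7A126, was in both tables. The study compared sperm DNA of 12 bull samples by enzymatic methylation sequencing, in which enzymes in place of bisulfite mark unmethylated cytosines. The labels put 6 samples under low daughter fertility and 6 under high daughter fertility, and give no age, breed, batch or treatment for either. Each locus has the authors' p, their q and a signed methylation difference in percentage points with positions on ARS-UCD1.2, an assembly of cattle DNA. Neither labels nor headers say which group was subtracted, so differences are given as positive or negative as listed. Values per sample, methylation levels and read depth were not analysed here. No spread between samples can therefore be set beside a difference, and the sperm label could not be checked against marker loci.

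Olfactory receptors are membrane receptors of the nose that couple to G proteins and bind odorants. They form one of the largest gene families of mammals, mostly in tandem clusters of close relatives with the whole protein encoded in an uninterrupted coding exon. Class I receptors, first known from fish, form a cluster of their own, and class II holds the other families. Each olfactory neuron uses very few of the genes, and transcripts of some members are known from testis and sperm. Many copies have decayed to pseudogenes.

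The NCBI gene number in each description matched a RefSeq symbol for all 61 genes, and RefSeq lists 58 of them as protein coding and 3 as pseudogenes (OR5D57P, OR6B9P and OR7A111P). The genes belong to 14 families and 45 subfamilies, with 8 genes in class I and 53 in class II. In total 16 genes share their description with another member, among them 4 called olfactory receptor 7A17 and 4 called olfactory receptor-like protein OLF4. How reads that match several such copies were handled is not given in the sources used here, and its part in the values below was not tested. The 62 annotated coding segments had a median length of 945 bp and ran from 9 to 1056 bp. The genes lie on 12 chromosomes, with 24 on chromosome 15 and 14 on chromosome 7. Joined over gaps of up to 1 Mb, the loci formed 20 clusters, 9 of them with a single gene. Of the 57 genes with a listed site, 40 had only 1.

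Methylation at olfactory receptor sites differed between the groups in both directions, and few sites passed the authors' test. Calls here need the authors' q under 0.05 together with 10 points or more in either direction. By that rule 7 of the 120 sites (5.83%) were called, against 4.14% of the 4207 autosomal sites within 10 kb of any gene and 5.94% of all listed sites. Of the 7 called sites 5 were negative, and of the 174 called autosomal sites near a gene 104 were negative (2.47% of all 4207). With q below 0.05 at any size the count was 8 (6.67%, background 5.75%). The added site, in the authors' deposited table, was 8.89 points (q = 0.0381), 6611 bp downstream of OR3A1 on chromosome 19. These shares lie close to the background and describe the lists only.

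The signs of the listed sites were nearly even. In all, 64 of 120 sites were negative (53.3%), where 56.3% of the autosomal sites near a gene with a difference other than 0 were negative. By the authors' deposited table the median difference was -0.73 points for olfactory receptor sites and -0.45 points for that background, and with 1 value per gene the former was 0.04 points. The spread around 0 was wider at the receptors. As counted from the authors' deposited table, 27 of 120 sites (22.5%) differed by at least 10 points, against 10.1% of autosomal sites near a gene, and the median absolute difference was 4.29 against 2.60 points. Of these 27 sites 20 were not called. An unadjusted p below 0.05 was listed for 25.8% of receptor sites and 20.8% of the background. Depth was not analysed here, and its part in this spread was not tested. The 10 kb limit fell between uncalled sites: those just inside, 9936 and 9935 bp from OR7A126, read -3.89 and 1.48 points, and the first outside, 10060 and 10140 bp from their genes, read 5.45 and 0.48 points, by the authors' deposited table.

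**Figure D1:**
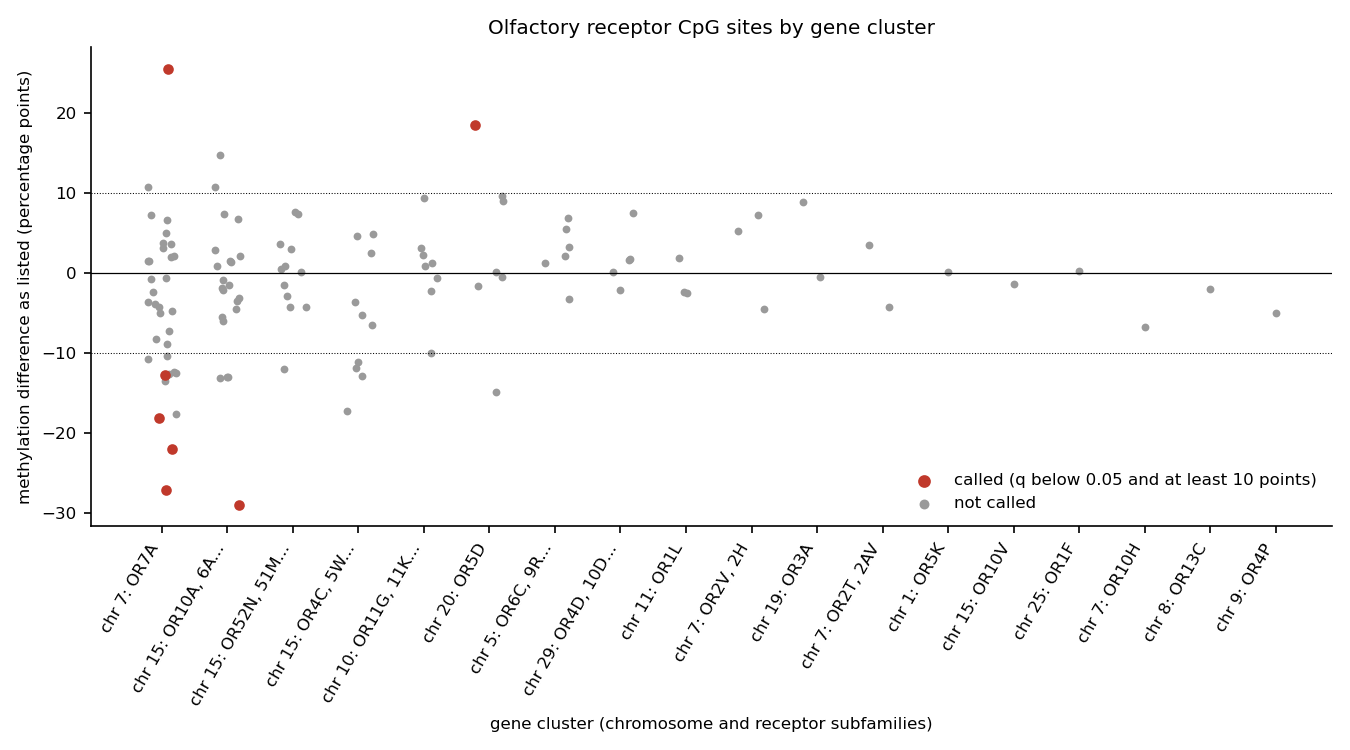
Methylation difference as listed (percentage points, vertical axis) of the 120 olfactory receptor sites, 1 point per site, in the 18 gene clusters that hold a site, ordered by number of sites. Red points are the 7 called sites, 5 of them in the OR7A cluster of chromosome 7, and dotted lines mark 10 points; horizontal scatter within a cluster has no meaning.

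The OR7A cluster on chromosome 7 held most of the calls. This subfamily of class II receptors is represented by 9 genes between positions 8507120 and 9605208, with 34 sites. Of these sites 22 were negative and 5 were called (14.7%, exact 95% interval 4.95 to 31.1 for counting error only). The interval takes neighbouring sites as independent, and the cluster is singled out here for its calls. The interval therefore cannot be read against a background share. The share called was 4.14% over all autosomal sites near a gene. On chromosome 7, where the authors' q admits larger p-values than on chromosome 15, it was 5.74% (12 of 209 such sites). Both of these shares include the 34 sites and 5 calls of the cluster itself. By the authors' deposited table the median was -4.09 points here and 0.06 points over the other 86 sites, of which 2 were called. A single gene, OR7A126, supplied 25 of the 34 sites, and the median over the 9 sites of the other 8 genes was -0.77 points by the authors' deposited table, with 2 of the 9 called. In this cluster 13 of 34 sites (38.2%) differed by at least 10 points, against 14 of 86 (16.3%) elsewhere. The clusters were not compared by a test, since sites of a cluster neighbour each other.

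OR7A126 (ENSBTAG00000049396, described as olfactory receptor 7A17), with a coding segment at chr7:8782606-8783574 on the plus strand, had 25 sites, the most of any member. Of these, 16 were negative and 3 were called, all negative. The lowest value in the authors' deposited table was -27.1 points (p = 5.8e-05, q = 0.00352) at position 8784853, 1279 bp downstream of the coding segment. The next was -22.0 points (q = 0.00805) at position 8781050, 1556 bp upstream, in the class the authors call promoter. The remaining called site was -12.7 points (q = 0.0410) at position 8773362, 9244 bp upstream, in the authors' deposited table. Its listed neighbours at 8773329 and 8773372 had nearly the same differences there, -12.3 and -12.6 points, with q of 0.0560 and 0.0543, so this call stands at the edge of the threshold. Another site of that group, at 8773245, had the opposite sign at 10.7 points (q = 0.257) by the authors' deposited table. Inside the coding segment the 6 sites ranged from -10.4 to 7.24 points in the authors' deposited table, 3 of them negative, and none was called (edge values q = 0.164 and 0.271). The called sites thus lay on both sides of the coding segment, and the sites between them had both signs.

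The tiles of OR7A126 spanned a narrower range of differences than its single sites. By the authors' deposited table its 5 tiles ranged from -4.40 to -0.39 points, all negative and none called, and 1 had q below 0.05 (-4.40 points, q = 6.47e-04, at chr7:8782801-8783300 inside the coding segment). Each tile held 5 listed sites. The mean site difference was -4.68 points in the upstream tiles, whose own values were -0.39, -2.34 and -0.54 points in the authors' deposited table. In the coding segment the order was the other way, with a mean site difference of -0.18 points and tile values of -2.09 and -4.40 points in the authors' deposited table. The table of sites does not list every CpG that a tile may combine.

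The surroundings of OR7A126 were mostly negative as well. Within 50 kb of its coding segment the tables list 37 further sites, closest to other features or farther than 10 kb, and 29 of these were negative and 3 were called, all negative, down to -30.3 points in the authors' deposited table. All 8 further tiles there were negative, from -8.12 to -2.26 points in the authors' deposited table, and none was called. Over all autosomal sites 4.48% were called, and 57.9% of those with a difference other than 0 were negative. Over all autosomal tiles 2.34% were called and 70.3% were negative.

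The other 8 genes of the cluster had 9 sites with a range of signs. A site 3758 bp downstream of the pseudogene OR7A111P (ENSBTAG00000054146) was called, and the authors' deposited table gives it -18.2 points (q = 0.0224, position 9131061). The site with the highest positive difference of all members was called 8131 bp upstream of OR7A99 (ENSBTAG00000052651), and the authors' deposited table gives it 25.5 points (q = 0.00432, position 9605208). OR7A103 had 1 uncalled site, for which the authors' deposited table gives -17.6 points (q = 0.0859), and this is the largest difference among uncalled receptor sites. At OR7A114 a pair of sites 5 bp apart read -12.5 (q = 0.223) and 6.62 points (q = 0.459) by the authors' deposited table. Single sites of OR7A90 (-8.91), OR7A75 (4.98), OR7A89 (-0.77) and OR7A76 (-0.60 points) were not called in the authors' deposited table.

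On chromosome 15, a cluster of 8 class II genes between positions 45867769 and 46027596 held 22 sites, 13 of them negative, and 1 was called. It was also the lowest value of all receptor sites in the authors' deposited table, -28.9 points (p = 2.7e-06, q = 3.03e-04) at position 45904920. The site lies 1131 bp upstream of OR6A2 (ENSBTAG00000019144), a class II receptor whose coding segment runs from 45906051 to 45907010 on the plus strand. Among all autosomal sites within 10 kb of a gene it ranked 21st by absolute difference. Its listed neighbour 217 bp farther upstream also read negative, -13.0 points (q = 0.0763), while the neighbour 271 bp downstream read 2.09 points (q = 0.454) by the authors' deposited table. The 3 sites inside the coding segment read -2.21, -1.59 and -1.86 points in the authors' deposited table. At OR6A2 the wide differences were thus listed at 2 neighbouring CpGs upstream, and those in the coding segment were narrow.

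The pseudogene OR6B9P (ENSBTAG00000037603) of the same cluster had 6 sites with both signs. In the authors' deposited table the highest was 14.7 points at position 45961125 inside a coding segment, with p = 9.37e-04 and q = 0.0527, just short of a call. A site 34 bp away in the same segment read -3.20 points (q = 0.589), and one 3223 bp downstream read 10.7 points (q = 0.174) by the authors' deposited table. OR10A5G had 1 site, given as -13.0 points with q = 0.238 by the authors' deposited table. OR2D3G had 1 site 1484 bp upstream at 6.74 points, with p = 0.0012 and q = 0.0527 by the authors' deposited table. OR6B17 (-6.04 points), OR6B18 (1.41 points) and the 3 sites of OR2AG1E (-0.94 to 2.89 points) completed the cluster in the authors' deposited table. OR2D4 has both strands of 1 CpG listed, with -4.49 points on the plus strand and -13.1 points on the minus strand (q = 0.594 and 0.220) in the authors' deposited table. OR7A126 gives the other 2 such pairs among the members, -10.7 with -7.30 points and -3.89 with 1.48 points in the authors' deposited table, so strands of 1 CpG could differ by several points or in sign.

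**Figure D2:**
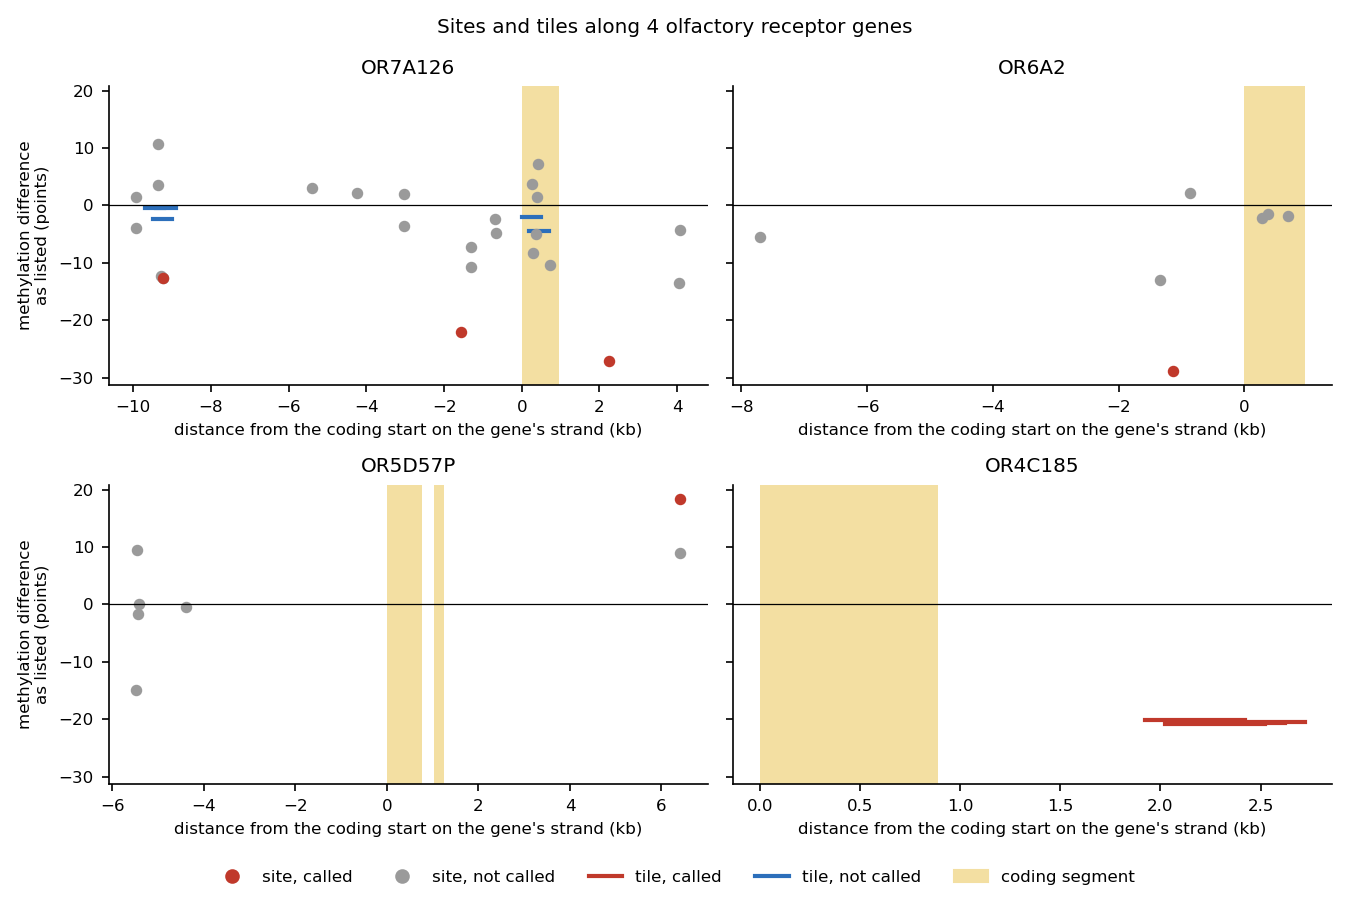
Methylation difference as listed (points, vertical axis) against distance from the coding start on the gene's strand (kb) for OR7A126, OR6A2, OR5D57P and OR4C185; points are sites, bars are tiles, red marks called loci and shading the annotated coding segments. The called sites lie outside the coding segments, and the 4 called tiles of OR4C185 overlap each other between -20.9 and -20.1 points.

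The 8 class I genes form a cluster of their own on chromosome 15, between positions 47308643 and 50343124, with 12 sites. None was called by the authors' q, against 4.14% of autosomal sites near a gene and 1.53% of those on chromosome 15. After a Benjamini-Hochberg adjustment over the table, with at least 10 points, 0 were called. An unadjusted p below 0.05 was listed for 3 (25%), against 20.8% of autosomal sites near a gene. In the authors' deposited table these 3 were 7.59 points in an intron of OR51G2 (p = 0.00139, q = 0.0527), 7.33 points in the coding segment of OR51H5 (q = 0.104) and -12.0 points in that of OR51A25 (q = 0.130). The remaining class I sites, at OR52N2G, OR51M1, OR51F5, OR51A4, OR51L1C, OR51G2 and OR51A25, ranged from -4.30 to 3.65 points in the authors' deposited table. The median over the class was 0.32 points, and that of the 108 class II sites was -0.85 points, in the authors' deposited table. The difference between the classes was not tested.

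Another cluster of chromosome 15, between positions 78374443 and 79461414, held 10 sites at 4 genes, and 7 were negative with no call. OR4C1J had 5 of them, the lowest at -17.2 points (q = 0.129), 2313 bp upstream, in the authors' deposited table. OR8K64 had 3 sites within 51 bp of each other at -11.1, -11.9 and -12.9 points, with q from 0.208 to 0.266 in the authors' deposited table. These 3 values lie close together, although none passed the authors' test. OR5W2 (-6.52 points) and OR5T2 (4.84 points) had 1 site each in the authors' deposited table.

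OR5D57P (ENSBTAG00000047333), near the start of chromosome 20, is the other pseudogene with a call. In the authors' deposited table its highest site was 18.4 points (p = 0.00160, q = 0.0402) at position 157861, 5166 bp downstream, and the site 19 bp before it read 8.98 points (q = 0.303). Its 5 upstream sites ranged from -14.9 to 9.54 points in the authors' deposited table, with the ends of that range 26 bp apart (q = 0.143 and 0.116), so neighbouring CpGs had opposite signs. Of 62 tiles within 50 kb, none assigned to this gene, 21 were negative and none was called. Among all autosomal tiles, 70.3% were negative and 2.34% were called.

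The remaining sites, on chromosomes 1, 5, 7, 8, 9, 10, 11, 15, 19, 25 and 29, held no call. Of these, the 5 genes of chromosome 29 and the 5 of chromosome 5 each had 1 negative site, among 5 and 6 sites, with medians of 1.58 and 2.68 points in the authors' deposited table. On chromosome 7 outside the OR7A cluster, OR10H4T had 1 site at -6.79 points, and OR2V1, OR2H10, OR2T3B and OR2AV13 had sites from -4.54 to 7.19 points in the authors' deposited table. OR1L8E and OR1L20 on chromosome 11 had 3 sites from -2.48 to 1.86 points, and OR3A1 a second site at -0.51 points, by the authors' deposited table. Single sites of OR4P45 (-5.00), OR13C7L (-1.96), OR10V1 (-1.46), OR1F1C (0.23) and OR5K1 (0.04 points) were uncalled in the authors' deposited table. The 4 genes of chromosome 10 ranged from -10.1 points at OR4F14I (q = 0.215) to 9.27 points at OR4K36 (q = 0.0795) in the authors' deposited table.

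Among the tiles, 4 of 18 (22.2%) were called, against 2.01% of the 1791 autosomal tiles within 10 kb of a gene (all of these negative) and 2.78% of all listed tiles. The 4 belong to a single gene and overlap, so they merge to 1 region of 800 bp (chr15:1092601-1093400), and the share counts 1 event 4 times. The region lies downstream of OR4C185 (ENSBTAG00000046387, described as olfactory receptor 4C6-like), with 1035 bp between it and the coding segment at 1094435 to 1095322 on the minus strand. In the authors' deposited table its tiles read -20.6, -20.7, -20.9 and -20.1 points, with q from 3e-46 to 2.2e-42. The lowest of them ranked 1st among autosomal tiles near a gene and 2nd among all listed tiles by negative difference. No listed site falls inside the region, and no other listed locus lies within 50 kb of the gene, so the other table gives nothing to set beside it. The nearest listed site, 63519 bp away, read -2.38 points (q = 0.765) by the authors' deposited table.

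The other receptor tiles were small in difference, though many had q below 0.05. With q below 0.05 at any size, 13 of 18 receptor tiles (72.2%) passed, near the 67.2% of all autosomal tiles near a gene. OR5A1, a class II receptor of chromosome 15, had 3 overlapping tiles from position 82654101 to 82654800, over the first part of its coding segment, at -1.87, -2.38 and -2.45 points (q from 4.98e-07 to 2.25e-04) in the authors' deposited table. The 3 tiles of OR5C1 on chromosome 11 ranged from -0.78 to -0.18 points, and those of OR5B12 on chromosome 15 from 0.65 to 1.36 points, the only positive receptor tiles, in the authors' deposited table. For 2 of the OR5B12 tiles the authors' deposited table has q = 0.0392 and 0.0148 beside p of 0.188 and 0.0663, above 0.05. A q smaller than its p was listed for 13 of the 18 receptor tiles and 10 of the 120 receptor sites. In all 15 of the 18 tiles were negative (83.3%, where 63.7% of the autosomal tiles near a gene with a difference other than 0 were), and the medians were -1.98 and -0.39 points by the authors' deposited table. The 18 tiles merge to 6 regions at 5 genes, and all tiles of a gene had the same sign, so this share counts neighbouring windows repeatedly. With 1 vote per gene it was 80%. No listed site falls inside the tiles of OR5A1, OR5C1 and OR5B12.

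The called receptor loci all lay outside the genes' own sequence. Of the 31 sites inside a gene (26 in a coding segment and 5 in an intron) the authors' q called 0, 7 had an unadjusted p below 0.05, and the Benjamini-Hochberg adjustment over the table called 1, the OR6B9P site. Over all genes, 3.10% of 2483 autosomal sites inside a gene were called. The count of 0 among 31 sites lies close to that share and describes the list only. Of the 56 upstream sites in the authors' promoter class 4 were called (7.14%), where 7.04% of that class was called over all autosomal genes, and of the 33 downstream sites 3 were called (9.09%, against 4.33%). By the authors' deposited table the median absolute difference was 3.65 points inside and 4.54 points outside the receptor genes, and 2.35 and 3.13 points over all autosomal genes. The wider spread of receptor sites was thus listed in both positions. The authors' class for a tile follows its start, so 2 of the 5 tiles in the promoter class reach into the coding segment, and 11 of the 18 tiles overlap one.

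**Figure D3:**
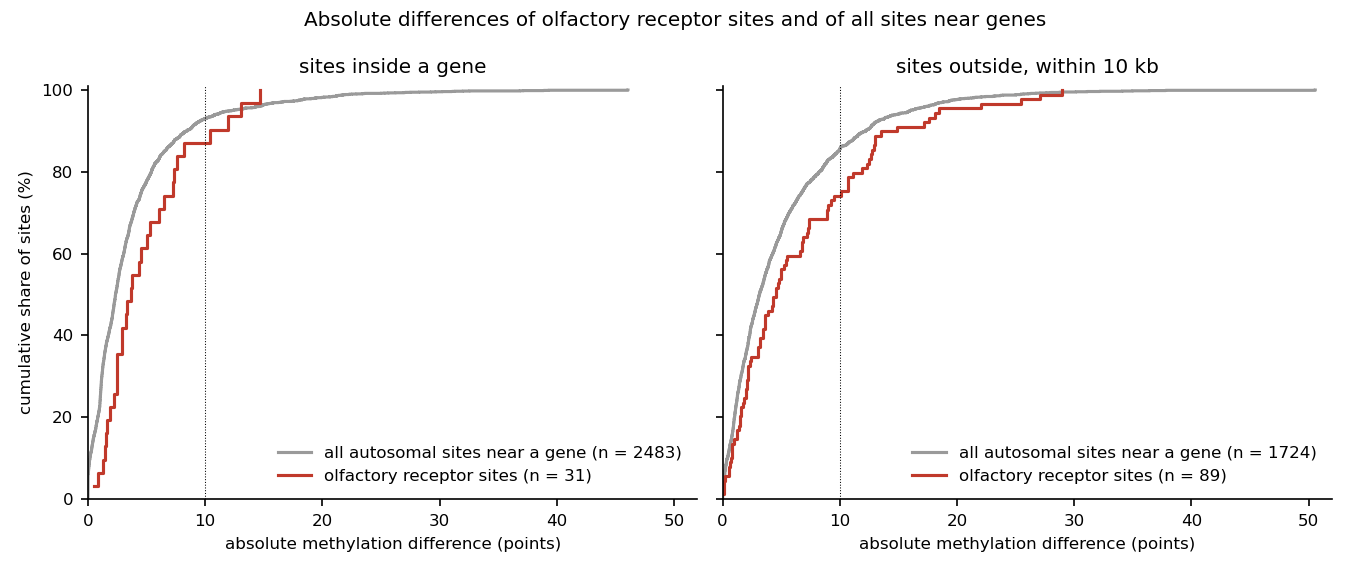
Cumulative share of sites (%) against absolute methylation difference (points) inside genes (left) and outside but within 10 kb (right), for olfactory receptor sites (red, 31 and 89 sites) and all autosomal sites near a gene (grey, 2483 and 1724 sites). The red curves run below the grey ones over most of the range, and at the dotted line of 10 points 4 of the 31 and 23 of the 89 receptor sites lie to the right.

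The authors' q-values set a different bar on each chromosome, which bears on where receptor calls fall. Within each of the 24 chromosomes of the site table and the 27 of the tile table q never fell as p rose, whereas over the whole tables it fell 7549 and 2546 times. The highest p with q below 0.05 was 0.00383 on chromosome 7 but 1.13e-04 on chromosome 15, a ratio of 33.8, in the authors' deposited table. Chromosome 15 had the lowest such limit of the autosomes, and it holds 45 receptor sites, while chromosome 7 holds 40. Among autosomal sites near any gene 5.74% of 209 were called on chromosome 7 and 1.53% of 326 on chromosome 15. With the limit of chromosome 7 applied to every chromosome, chosen after seeing the data, 9 receptor sites passed (7.50%, background 4.37%), with 5 on chromosome 7 and 3 on chromosome 15. With the limit of chromosome 15 applied in the same way, 3 receptor sites passed (2.50%, background 1.40%), with 2 on chromosome 7 (OR7A126 and OR7A99) and 1 on chromosome 15 (OR6A2), so the count of 7 depends on which limit is used. The sites added on chromosome 15 by the limit of chromosome 7 were the site of OR6B9P given as 14.7 points by the authors' deposited table and that of OR6A2 given as -13.0 points. With a Benjamini-Hochberg adjustment over all listed p-values, and 10 points or more, 8 receptor sites passed (6.67%, background 4.25% for sites and 2.01% for tiles), the 7 called ones and that of OR6B9P.

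**Figure D4:**
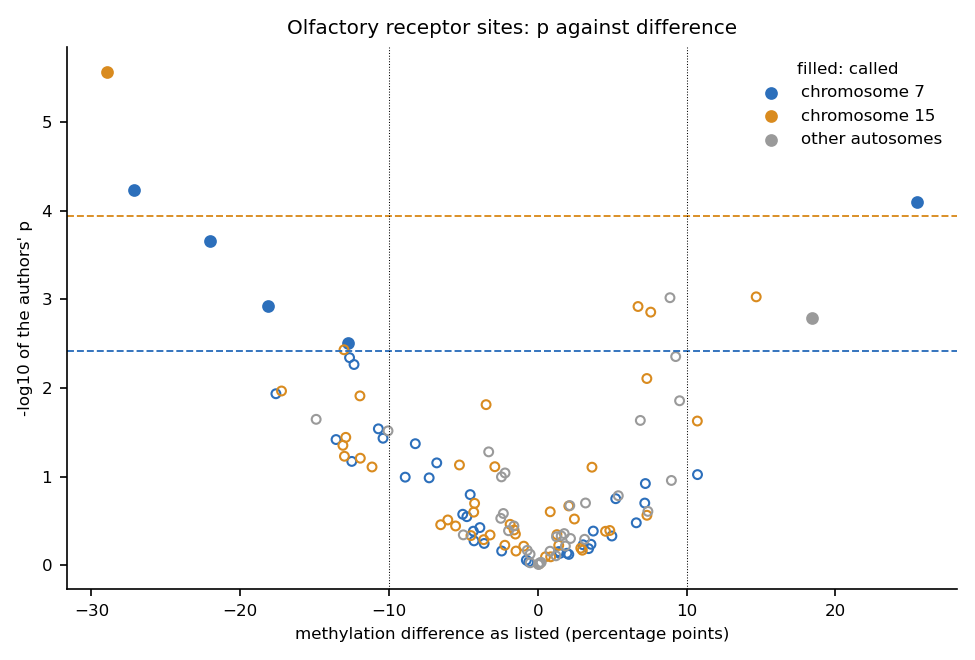
The authors' p on a -log10 scale (vertical axis) against methylation difference as listed (points) for the 120 olfactory receptor sites, coloured by chromosome, with called sites filled. Dashed lines mark the highest p with q below 0.05 on chromosome 7 (blue, 0.00383) and chromosome 15 (orange, 1.13e-04), and 2 open orange points beyond the dotted lines of 10 points lie between the dashed lines, at 14.7 and -13.0 points.

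Other gene families were counted in the same way for comparison, with no test. Genes described as zinc finger had 161 sites at 38 genes. Of these sites 7 (4.35%) were called, all at 1 gene, and 6.21% differed by at least 10 points, against the 22.5% of receptor sites. Solute carrier genes had 58 sites, with 2 called and 6.90% at that size, and keratin genes had 10 sites, with 0 called (2 at an unadjusted p below 0.05, 0 by Benjamini-Hochberg). Of the genes that carry the odorant signal onward or relate to it, only G protein subunit alpha L, the G protein of olfactory neurons, and receptor transporter protein 4 had a site within 10 kb. Their 3 sites and 2 tiles held 0 calls (0 by Benjamini-Hochberg and 0 at an unadjusted p below 0.05), with a lowest value of -4.18 points at the latter in the authors' deposited table. With q below 0.05 at any size 1 tile passed, at G protein subunit alpha L (q = 0.0428), where 67.2% of autosomal tiles near a gene did. The 2 tiles of that gene read -0.61 and -0.08 points in the authors' deposited table. A vomeronasal receptor and a trace amine-associated receptor, members of other chemoreceptor families, had 1 uncalled site each.

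Beyond 10 kb, 202 further sites and 111 tiles have an olfactory receptor as their closest feature, with 9 and 0 calls (tiles by the authors' q; 81 at an unadjusted p below 0.05, 0 by Benjamini-Hochberg with at least 10 points). The called share of these sites was 4.46%, near the 4.48% of all autosomal sites. Of the 9, 3 are closest to further OR7A genes of chromosome 7. In the authors' deposited table they were -32.4 points (q = 4.1e-04) 15966 bp from OR7A88 and -32.4 and -24.5 points about 64 kb from OR7A77, all negative. The pseudogene OR4P84P on chromosome 18 accounts for 120 of these sites and 57 of the tiles, at least 84569 bp away, and 5 of the sites were called.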

How the data were processed

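Both tables are the authors' own comparison of the groups. Per the file headers, which use methylKit's column names, each locus has a deposited p-value and q-value, and a difference in methylation given in percentage points. The authors also deposited the distance in bp to the closest annotated feature. For loci inside a feature that distance runs to the feature's nearer edge, and for tiles it runs from the tile's start. The build was ARS-UCD1.2 and the tools were methylKit, Bismark and Trimmomatic, per the submitters' processing notes. Versions, settings, coverage filters and the adjustment behind q are not given in the sources used here. Depth per sample is unknown here.

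Descriptions were decoded and searched with Python 3.11.15 and pandas 2.3.3. No new test was run on the groups, since values per sample were not analysed here, and p-values and q-values in the text are the authors' own. Benjamini-Hochberg values were computed from the authors' p over all listed loci of a table. Their code was checked against another implementation on the listed p-values of the sites. The code for members, calls, regions and clusters was tested on simulated data. Symbols and pseudogene status came from a RefSeq table of a later assembly, ARS-UCD2.0, by NCBI gene number, and families were read from these symbols, because 6 descriptions give another family number or none. Not analysed here were chromosomes 12, 23 and 27 of both tables and, for sites, also 2, 3 and 4. The members, lists and thresholds were chosen with earlier results of these data known. Named genes are every receptor gene with a called locus, the 10 with the largest absolute difference and the 5 with the most loci in each table, and the gene in both tables; others are named only to complete a cluster, a class or a count, after their values were seen. Alternatives varied the thresholds of q, difference, distance and gap, the counting unit and the genes left out.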

Additional observations from a re-analysis of the deposited data

How the results depend on the processing

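The 7 called sites (5.83%) became 4 (3.33%) at 20 points or at q below 0.01. Within 2 kb of the feature 3 sites (5.88%) were called. With the p limit of chromosome 15 for every chromosome the count was 3 (2.50%, background 1.40%). It was 4 (4.21%) without OR7A126, against 4.14% of autosomal sites near a gene. At any distance it was 16 (4.97%), against 4.48% of all autosomal sites. Each receptor share is of the receptor sites counted in that setting. No background share is given at 20 points, at q below 0.01 or within 2 kb, so those counts describe the receptor list only. That p limit, any distance, the position inside the gene and leaving out OR7A126 were chosen after seeing the data. Inside the gene 0 of 31 sites (0%) and 0 of 9 tiles (0%) were called by the authors' q. Over all autosomal genes 3.10% of such sites and 1.57% of such tiles were called. The 4 called tiles counted as 1 merged region, and at any distance they were 3.10% of the receptor tiles, against 2.34% of all autosomal tiles. The median site difference of -0.73 points turned to 0.042 points with 1 value per gene and to 0.065 points without the OR7A cluster, so its sign rests on that cluster. Of the 8 sites with q below 0.05, 62.5% were negative, against 53.3% of all. Joining over 100 kb gave 45 clusters in place of 20. No locus had a feature at 0 bp, so that setting gave no value. No paired analysis was possible because the tables hold no values per sample, and for the same reason no sample was left out. Depth, which sets the precision of a single CpG's value, was not analysed here.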
